A study of Mus musculus with 12 samples.

Results

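The pentraxin genes measured here were Mptx1, Ptx3, Crp and Apcs, 4 of 19935 genes in the series. They were chosen by name as probe sets annotated with exactly that symbol, and each had 1 probe set. The genes were picked with results of these arrays known, and which values led to the choice is not recorded. It was assumed to be the change of Mptx1 under dextran sulfate sodium (DSS) in wild-type mice, so values that contain those DSS arrays are a description without a test. The p-values given for the 4 genes in DSS minus water in TG hold only under that assumption. Those for TG minus WT at water use the WT water arrays, which that change also contains. They are therefore not independent of the choice even under the assumption. The study asked how claudin-2, a pore-forming tight junction protein, affects the colon at rest and in chemical colitis. The 4 groups, of 3 Affymetrix arrays each, were Villin-Claudin-2 transgenic males (TG, labelled Cl-2TG) on DSS, TG males on water, wild-type littermates (WT) on DSS, and WT males on water. All mice were 8 to 10 weeks old, DSS was given at 4% w/v in the drinking water, and treatment lasted 10 days in every group. Villin, whose name the transgene carries, is made by intestinal epithelium. The labels name colon epithelial cells and are silent on whether arrays stand for separate animals, so the p-values cover the spread among arrays, part of which may be technical.

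Pentraxins are secreted recognition proteins whose subunits assemble into rings. They bind bacterial surfaces, dying cells and damaged chromatin, and pass the bound target on to complement component C1q and to Fc gamma receptors of phagocytes. Crp (C-reactive protein) and Apcs (serum amyloid P component) are short pentraxins made by hepatocytes, and in mice serum amyloid P is the main acute-phase pentraxin. Ptx3 is a long pentraxin made at sites of injury by myeloid cells, endothelium and fibroblasts after interleukin-1, TNF or Toll-like receptor signals. Mptx1 encodes mucosal pentraxin, a short pentraxin of the intestinal lining, whose rat counterpart was described in colon mucosa as a gene known to fall when heme is added to the diet.

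In the RefSeq annotation of mouse assembly GRCm38.p6, Mptx1 lies at chr1:174330518-174332877, Crp at chr1:172698056-172699966, Apcs at chr1:172893961-172895054 and Ptx3 at chr3:66219887-66225806. The 3 short pentraxins share a region of chromosome 1 with Mptx2, the second mucosal pentraxin gene, which lies 1053 kb from Mptx1 and is not analysed here because no probe set was named by it. The 250 bases before the annotated starts of the mucosal pair are printed next, from RefSeq on the strand of each gene, because the pair are close copies and only one of them was measured. Capitals mark stretches of 12 or more bases that are identical in an alignment of both windows. The Mptx1 window is chr1:174330268-174330517 on the plus strand and the Mptx2 window is chr1:173277757-173278006 on the minus strand.
Mptx1: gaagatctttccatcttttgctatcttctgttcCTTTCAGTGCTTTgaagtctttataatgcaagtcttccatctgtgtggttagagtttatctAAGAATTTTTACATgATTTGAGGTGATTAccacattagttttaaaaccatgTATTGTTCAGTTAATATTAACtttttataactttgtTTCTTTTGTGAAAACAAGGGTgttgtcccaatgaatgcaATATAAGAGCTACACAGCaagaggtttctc
Mptx2: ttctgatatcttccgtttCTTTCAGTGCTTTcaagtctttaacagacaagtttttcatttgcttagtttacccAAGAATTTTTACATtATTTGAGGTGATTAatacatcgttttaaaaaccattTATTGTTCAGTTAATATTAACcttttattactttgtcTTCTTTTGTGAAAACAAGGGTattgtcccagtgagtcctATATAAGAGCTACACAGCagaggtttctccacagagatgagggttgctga
These windows were identical at 198 of 272 aligned positions (72.8%), with a longest shared run of 21 bases. With the first 50 transcribed bases added, the best local alignment was identical at 248 of 286 positions (86.7%). In the same 250 bases Mptx1 was 44% identical to Crp, 45.7% to Apcs and 42.9% to Ptx3. Which of the pair the Mptx1 probes can bind cannot be read from the deposited values, so signal from Mptx2 is not separated from that of Mptx1.

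Short motifs of 4 factors were searched on both strands of the 250-base windows, with overlapping matches counted, and a match is a description of letters only. A C/EBP motif (TTGCNNAA) was in the Ptx3 window, at -57 from the start, and in 9.56% of 32851 windows of all genes. A STAT motif (TTCNNNGAA) was in the Apcs window, at -244 from the start, and in 7.02% of all windows. An NF-kB motif (GGGNNTTCC, in 4.98% of windows) and a CDX motif (TTTATG, in 10.8%) had no match in the window of any of the 4 genes or of Mptx2. The Ptx3 window, chr3:66219637-66219886 on the plus strand, is shown with its 1 match in capitals.
Ptx3: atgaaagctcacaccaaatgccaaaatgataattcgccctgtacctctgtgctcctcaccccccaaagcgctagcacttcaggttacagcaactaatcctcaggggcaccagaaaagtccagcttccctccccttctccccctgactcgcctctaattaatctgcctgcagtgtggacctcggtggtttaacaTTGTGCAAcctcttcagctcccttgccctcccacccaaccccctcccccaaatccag

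Each deposited value is a log2 signal from which the median of its probe set over the 12 arrays had been taken away, so it compares arrays and says nothing of how abundant a transcript is. A gene that is silent and a gene that is steady look alike on this scale, the 4 genes cannot be ranked by level, and the labelled cell type could not be checked by level. The WT DSS arrays and TG DSS replicate 1 stood apart. Between 22 and 91 of 28815 probe sets lay over 1 log2 unit from their median on the 6 water arrays. It was 285, 53 and 90 in TG DSS replicates 1, 2 and 3, so replicates 2 and 3 lay within the water range. In WT DSS it lay between 677 and 3795, with replicate 2 the highest. Markers of epithelium in general had a median of -2.08 on that array and between -0.21 and 0.12 on the other 11.

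Mptx1 carried nearly all the variation of the 4 genes. It read -3.56, -6.17 and -4.89 in WT DSS replicates 1, 2 and 3, against 0.42, 0.19 and 0.12 in WT water replicates 1, 2 and 3. All 3 DSS arrays were far below all 3 water arrays, with a gap of 3.68 between the groups. The mean difference was -5.12 ± 0.69 (SE, n = 3 arrays per group), or 34.7-fold lower, the lowest of all 19935 genes in that comparison. Array by array, Mptx1 was the lowest of all genes in WT DSS replicates 1 and 2. It was at rank 3 from the bottom in replicate 3, behind Tgm3 at -6.12 and Hoxb13 at -5.36, which were named after their values were seen. The SD was 1.31 in WT DSS and 0.16 in WT water, and the WT DSS arrays spanned 2.61 log2 units, a 6.12-fold range.

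Under DSS, TG arrays gave a different set of values. Mptx1 read -2.05, 0.48 and -0.06 in TG DSS replicates 1, 2 and 3, against 0.26, 0.06 and -0.29 in TG water replicates 1, 2 and 3. Only TG DSS replicate 1 was low. It stood 4.14-fold below the gene's median, at rank 3 from the bottom of all genes on that array, behind Trim30d at -2.51 and Trim12a at -2.25, likewise named after their values were seen. TG DSS replicate 2 held the highest Mptx1 value of the 12 arrays and replicate 3 lay within the range of the TG water arrays. The SD was 1.33 in TG DSS and 0.28 in TG water.

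**Figure D1:**
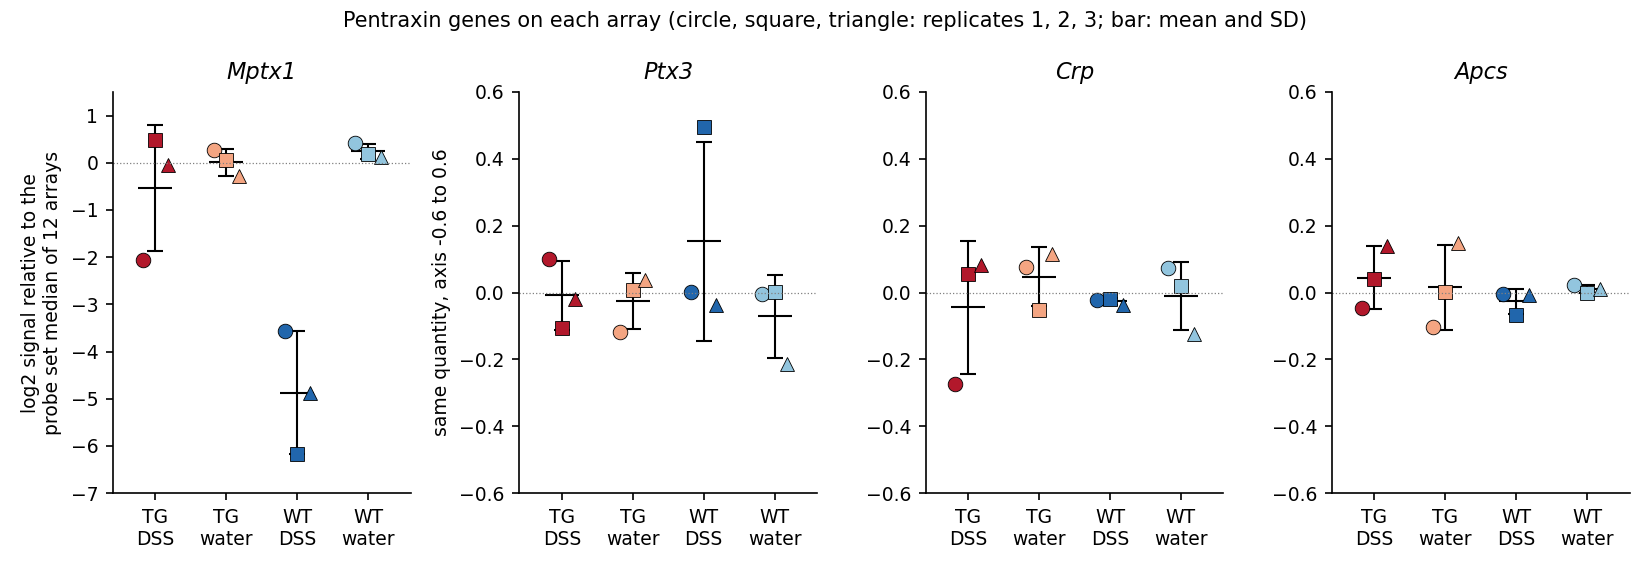
Log2 signal of each pentraxin gene relative to its probe set median, by group, with a point per array and the mean with SD, on a wider axis for Mptx1 than for the other 3. Mptx1 sits between -6.17 and -3.56 in WT DSS and at -2.05 in TG DSS replicate 1, while the other 3 genes stay between -0.27 and 0.50 on every array.

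The DSS response of TG mice was tested, on the assumption that its 6 arrays had no part in the choice of Mptx1. The DSS minus water difference in TG was -0.55 ± 0.69 (SE, n = 3 arrays per group; 95% interval -2.09 to 0.98; limma adjusted p = 1), and the groups of arrays overlapped. It did not pass, and 1 array decided its sign: without TG DSS replicate 1 the difference was 0.20 ± 0.59 (SE). The SE draws on the spread of all 4 groups, so the WT DSS arrays widen it. No gene passed in this comparison (0% of 19935), where 475 had an unadjusted p under 0.05. Groups did not overlap for 13.4% of all genes and for 0 of the 4 pentraxins.

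The transgene at rest was compared on the water arrays. Mptx1 averaged 0.01 ± 0.28 in TG water and 0.24 ± 0.16 in WT water (SD, n = 3 each), and these groups overlapped. The TG minus WT difference was -0.24 ± 0.69 (SE; 95% interval -1.77 to 1.30; limma adjusted p = 1). This comparison shares the WT water arrays with the one assumed to have led to the choice of Mptx1, and its error comes mostly from the DSS arrays: fitted to the 6 water arrays alone, the SE was 0.15 (limma adjusted p = 1). Again 0% of genes passed, with 61 at an unadjusted p under 0.05, and arrays of both groups were fully apart for 4.98% of genes and for 0 of the 4 pentraxins.

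Under DSS, Mptx1 averaged -0.54 ± 1.33 in TG and -4.87 ± 1.31 in WT (SD, n = 3 each). The highest WT DSS array, at -3.56, stood 1.51 below the lowest TG DSS array, at -2.05. The TG minus WT difference was 4.33 ± 0.69 (SE), or 20.1-fold higher in TG, which was the highest of all 19935 genes. The DSS change in TG exceeded that in WT by 4.56 ± 0.98 (SE), again the highest of all genes. Both values contain the WT DSS arrays and are given without a test. In the first of these comparisons 8 of 19935 genes (0.0401%) passed. Its groups did not overlap for 19% of genes and for 1 of the 4 pentraxins. In the second 0% passed, with 1167 at an unadjusted p under 0.05.

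**Figure D2:**
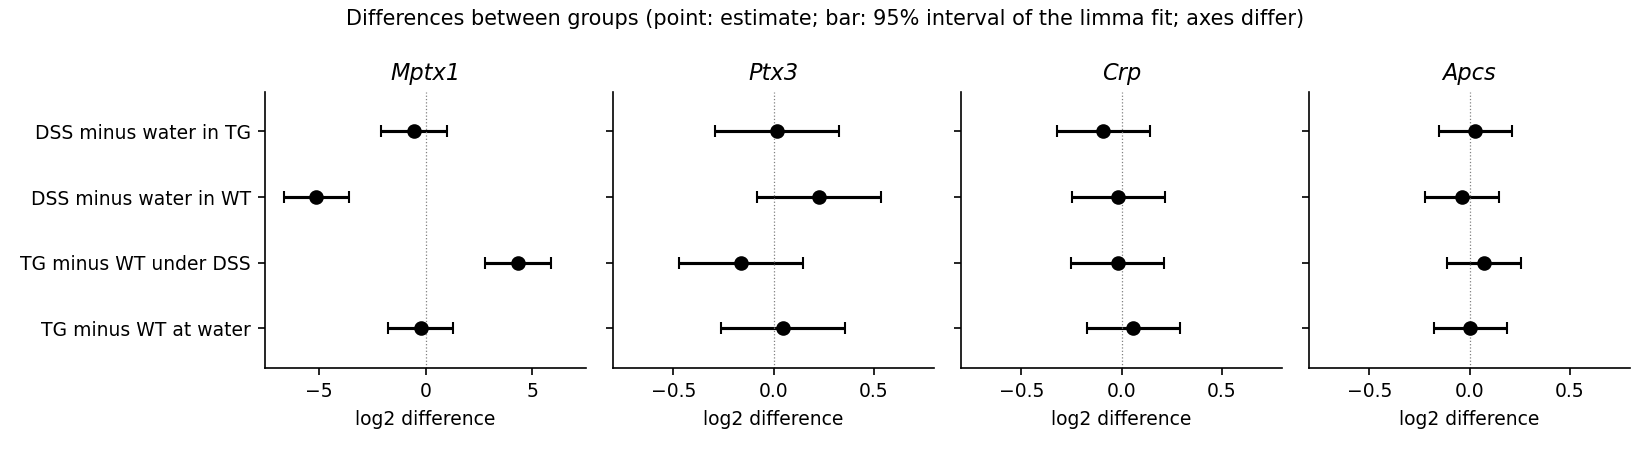
Log2 differences between groups for each gene, with the 95% interval of the limma fit to all 12 arrays; the Mptx1 axis is wider than the other 3. The DSS minus water estimate of Mptx1 is -5.12 in WT and -0.55 in TG. The other 3 genes lie between -0.16 and 0.22 in the comparisons drawn. Intervals for DSS minus water in WT and for TG minus WT under DSS use the WT DSS arrays. They are a description and not a test.

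Ptx3, the long pentraxin of inflamed tissue, varied little. It read 0.003, 0.50 and -0.04 in WT DSS replicates 1, 2 and 3, against -0.003, 0.003 and -0.21 in WT water replicates 1, 2 and 3. Only WT DSS replicate 2 was above the rest, 1.41-fold over the median, at rank 3245 from the top of all genes on that array. The difference in WT was 0.22 ± 0.14 (SE), and it was 0.05 without that array. In TG, Ptx3 read 0.10, -0.11 and -0.02 under DSS, against -0.12, 0.01 and 0.04 on water, and these ranges overlapped. The TG difference was 0.02 ± 0.14 (SE, n = 3 arrays per group; 95% interval -0.29 to 0.32; limma adjusted p = 1). At water, TG minus WT was 0.05 ± 0.14 (limma adjusted p = 1), and under DSS it was -0.16 ± 0.14, given without a test, and 0.0089 without WT DSS replicate 2.

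Crp read -0.02, -0.02 and -0.04 in WT DSS replicates 1, 2 and 3, against 0.07, 0.02 and -0.12 in WT water replicates 1, 2 and 3, so the DSS arrays lay inside the water range. The difference was -0.02 ± 0.10 (SE). In TG it read -0.27, 0.06 and 0.08 under DSS, against 0.08, -0.05 and 0.12 on water. The lowest of the 12 Crp values was on TG DSS replicate 1, the array that also held the lowest TG value of Mptx1. The TG difference was -0.09 ± 0.10 (SE, n = 3 arrays per group; 95% interval -0.32 to 0.14; limma adjusted p = 1), and it was 0.02 without that array.

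Apcs varied least of the 4, on a scale where a silent gene and a steady gene look alike. It read -0.0045, -0.07 and -0.0070 in WT DSS replicates 1, 2 and 3, against 0.02, -0.0009 and 0.01 in WT water replicates 1, 2 and 3. The WT groups did not overlap, but the gap between them was 0.0037 and the difference -0.04 ± 0.08 (SE), smaller than its error. In TG it read -0.05, 0.04 and 0.14 under DSS, against -0.10, 0.0009 and 0.15 on water. The TG difference was 0.03 ± 0.08 (SE, n = 3 arrays per group; 95% interval -0.15 to 0.21; limma adjusted p = 1). Over the 12 arrays Apcs spanned 0.25 log2 units, more than 5.23% of genes, and Crp spanned 0.39, more than 18.2%. Ptx3 spanned 0.71, more than 56.2% of genes, and Mptx1 spanned 6.65, more than 99.97%.

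For both liver pentraxins, TG minus WT was near 0. At water it was 0.06 ± 0.10 for Crp and 0.0041 ± 0.08 for Apcs (SE; limma adjusted p = 1 for both), and under DSS -0.02 ± 0.10 and 0.07 ± 0.08, without a test. The change of Crp under DSS in TG was -0.08 ± 0.15 relative to that in WT, that of Apcs 0.07 ± 0.12 and that of Ptx3 -0.21 ± 0.20. In WT under DSS, groups of arrays did not overlap for 2 of the 4 pentraxins, Mptx1 and Apcs, and for 16.1% of all genes. In that comparison 34 genes (0.171%) passed at a limma adjusted p under 0.05, 9 higher (0.0451%) and 25 lower (0.125%). The 4 pentraxins are not counted against these calls, since the comparison was taken as the one that chose them. The calls rest on the spread pooled over all 12 arrays: fitted to the 6 WT arrays alone, 0 genes passed.

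Markers of other cells moved on some of the same arrays. A bulk sample cannot tell fewer Mptx1-expressing cells from less Mptx1 RNA per cell. The median of 14 pan-epithelial markers was -0.10, -2.08 and 0.06 in WT DSS replicates 1, 2 and 3, and that of 11 goblet cell markers was 0.09, -1.80 and 0.25. Mptx1 minus the pan-epithelial median was -3.46, -4.09 and -4.95 in these replicates, and it was -1.84 in TG DSS replicate 1. For DSS minus water in WT all 14 pan-epithelial markers were below 0, with a median difference of -0.76. Of these, 0 of 14 passed, where 0.171% of all genes did.

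Lists of other cell types were read on the same arrays. For DSS minus water, 0.171% of all genes passed in WT and 0% in TG. Macrophage markers had medians of 1.11, 2.39 and -0.04 in WT DSS replicates 1, 2 and 3, with 11 of 11 above 0 for DSS in WT. Fibroblast markers had medians of 1.08, 2.26 and -0.22, with 10 of 10 above 0, and endothelial markers 0.64, 3.10 and -0.34, with 11 of 11 above 0. All 3 lists were high in WT DSS replicates 1 and 2 and below 0 in replicate 3, and 0 of their genes passed. In TG DSS replicate 1 their medians were 0.90, 0.85 and 0.50. Absorptive colonocyte markers had medians of -0.21, -2.16 and -0.03 in WT DSS replicates 1, 2 and 3 and between -0.48 and 0.07 in TG DSS, and 0 of 12 passed in either genotype. Neutrophil markers had medians of 1.49, 3.67 and 0.24 in WT DSS replicates 1, 2 and 3, between -0.05 and 0.61 in TG DSS, and between -0.25 and 0.11 on the water arrays, with 0 of 14 passing in WT. Crypt base stem cell markers had medians of -0.66, -1.04 and -0.83 in WT DSS, between -0.26 and 0.02 in TG DSS, and between -0.02 and 0.17 on water. In WT, 1 of 10 stem cell markers passed and was lower, as 0.125% of all genes were, and 0 of 10 passed in TG. That WT call was lost with a replicate block, with the WT arrays alone and with weights per group, where 0 genes passed. Posterior Hox genes, which mark the hind gut, had medians of -0.34, -0.52 and -1.34 in WT DSS and between -0.11 and 0.06 in TG DSS, with 0 of 9 passing in WT. The median of Paneth cell markers, 7 measured, stayed between -0.17 and 0.17 on all arrays. Single markers moved more and in both directions, with DSS minus water differences in WT from -0.74 to 1.19. Hepatocyte markers, the cells known for Crp and Apcs, had medians between -0.10 and 0.14 on the DSS arrays and 0.55 in TG water replicate 3. Single hepatocyte markers moved more and in both directions. Their DSS minus water differences ran from -1.96 to 0.61 in WT and from -1.24 to 0.88 in TG. The part of these shifts in the Mptx1 values was not tested.

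**Figure D3:**
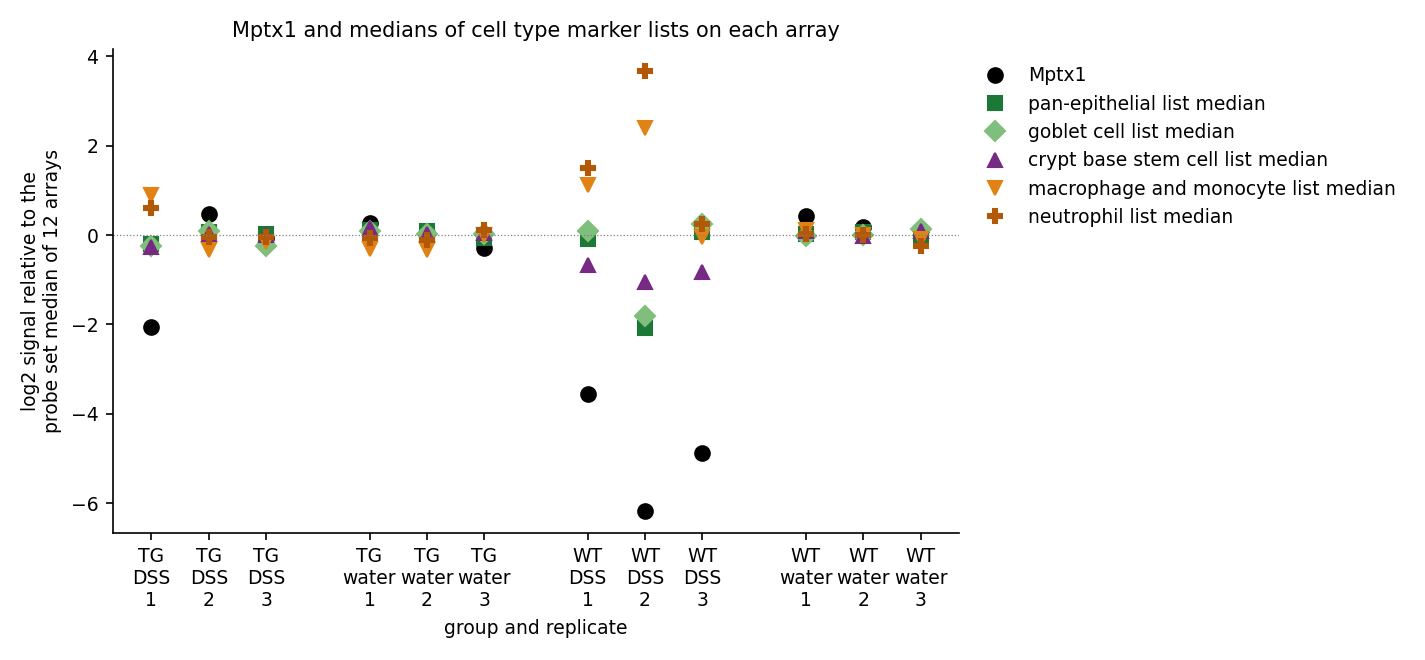
Mptx1 and the medians of 5 marker lists on each of the 12 arrays, as log2 signal relative to the probe set median, by group and replicate. In WT DSS replicate 3 Mptx1 is at -4.89 while the pan-epithelial median is 0.06 and the neutrophil median 0.24; in WT DSS replicate 2 it is at -6.17 with medians of -2.08 and 3.67.

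The genes whose pattern over the 12 arrays was most like that of Mptx1 were Slc6a4, the serotonin transporter, Cyp2f2, a cytochrome P450, Esrrg, an orphan nuclear receptor, and Klb, the co-receptor beta-klotho. Their Pearson correlations with Mptx1 lay between 0.980 and 0.989, as a description over arrays that share the 3 low WT DSS values. Each was lowest in WT DSS replicate 2, and each was below 0 in TG DSS replicate 1. Their range was smaller than that of Mptx1. Slc6a4 read -1.33, -2.96 and -2.01 in WT DSS replicates 1, 2 and 3 and -0.61 in TG DSS replicate 1, and Cyp2f2 read -1.75, -3.88 and -2.99 and -0.96 on the same arrays. For Ptx3 the nearest genes were Adamts14, a procollagen protease, Ahrr, the repressor of the aryl hydrocarbon receptor, Klrg1, an inhibitory lymphocyte receptor, and A730049H05Rik, with correlations between 0.957 and 0.977. All 4 were highest in WT DSS replicate 2. Crp was nearest to Pou5f1, Ifna13, Gm10505 and Klk7 (0.879 to 0.894) and Apcs to Olfr1245, BC006965, Magea9-ps and Prl5a1 (0.881 to 0.950). Whether any of these genes is above background cannot be read on this scale, so these correlations are a description only.

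**Figure D4:**
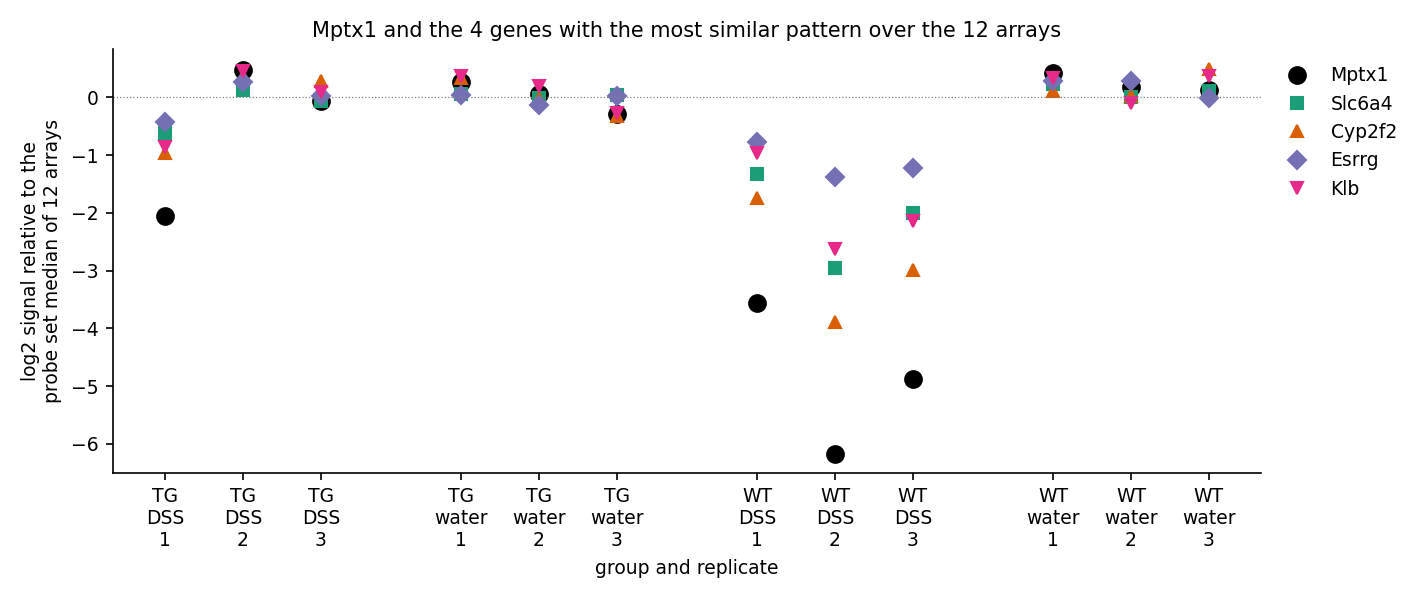
Log2 signal relative to the probe set median on each array for Mptx1 and the 4 genes with the highest Pearson correlation to it. All 5 are lowest in WT DSS replicate 2, where Mptx1 is at -6.17 and Cyp2f2 at -3.88, and all are below 0 in TG DSS replicate 1.

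Genes beside Mptx1 on chromosome 1 did not share its values. The 3 nearest measured genes on each side were Olfr421-ps1, Olfr420, Olfr419, Olfr417, Olfr248 and Olfr414, of the odorant receptor family, at distances of 36.0 to 178 kb. Their DSS minus water differences in WT lay between -0.16 and 0.04, where Mptx1 was at -5.12. A silent gene reads near 0 on this scale, so these values cannot tell silent neighbours from steady ones. Around Crp and Apcs, Slamf8, a receptor of myeloid cells, stood at 0.59 ± 0.30 and Dusp23, a phosphatase, at -0.24 ± 0.13, while Fcrl6, Olfr16, Olfr1408 and Olfr1406 lay between -0.11 and -0.01. Ptx3 lies inside the span of Veph1, which stood at -0.17 ± 0.12. Its other neighbours, Lekr1, Ccnl1, Shox2, Rsrc1 and Mlf1, lay between -0.23 and 0.47. None of these neighbours passed in WT, where 0.171% of all genes did.

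Other genes with a pentraxin domain were few on the array. Nptx1 and Nptx2, secreted neuronal pentraxins that cluster glutamate receptors, Ptx4, and Svep1, a large matrix protein, were measured. Of these, 0 of 4 passed in any comparison, where between 0% and 0.171% of all genes did. Nptx2 read -0.15, 2.32 and 0.24 in WT DSS replicates 1, 2 and 3, against 0.12, -0.09 and -0.04 in WT water. Its high value was on WT DSS replicate 2 alone. Svep1 read 0.74, 2.68 and -0.69 in WT DSS, against 0.34, -0.16 and -0.05 in WT water. It also read 1.25 in TG DSS replicate 1. Ptx4 and Nptx1 differed by -0.06 ± 0.12 and -0.10 ± 0.10 in WT (limma adjusted p = 0.877 and 0.703).

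Upstream of the family, the list of inducers held interleukin-1, interleukin-6, TNF and their signalling genes. All 12 measured members were above 0 in WT under DSS, with a median difference of 0.93 beside -0.04 over all genes. Of these, 0 passed, where 0.171% of all genes did in WT and 0% in TG. Il1b, an inducer of Ptx3, read 4.79, 5.44 and 1.93 in WT DSS replicates 1, 2 and 3, against 0.03, 0.18 and -0.27 in WT water (difference 4.07 ± 0.86; limma adjusted p = 0.0813). Tnf stood at 1.54 ± 0.25 (limma adjusted p = 0.0511). Ptx3 on these same WT DSS arrays read 0.003, 0.50 and -0.04. In TG the inducers had a median difference of 0.34, beside -0.01 over all genes, and 0 of 12 passed, with Il1b at 0.83 ± 0.86 and Tnf at 0.60 ± 0.25 (limma adjusted p = 1 for both). Il1b read 2.32 in TG DSS replicate 1 and -0.32 and -0.03 in replicates 2 and 3.

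Downstream, 9 of 11 listed complement partners and regulators were measured. In WT under DSS their median difference was 1.13, and 1 of 9 passed where 0.171% of all genes did, namely C2, the protease of the classical pathway convertase. Its call, and those of Itih2 and Saa3 given next, were lost in the fits with a replicate block, with the 6 WT arrays alone and with weights per group, where 0 genes passed. C2 read 0.72, 0.78 and 0.85 in WT DSS replicates 1, 2 and 3, against -0.19, -0.06 and -0.30 in WT water, without overlap (0.97 ± 0.13; limma adjusted p = 0.0272). In TG it read 0.30, 0.54 and 0.01, against -0.19, -0.10 and -0.01 on water, and did not pass (0.39 ± 0.13; limma adjusted p = 1). C4bp, an inhibitor of that convertase, read 0.04, -1.95 and -1.12 in WT DSS, against -0.06, 0.06 and 0.36 in WT water (limma adjusted p = 0.228).

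Fc gamma receptors, which take up pentraxin-coated targets, had a median difference of 1.92 over 5 genes in WT and 0.56 in TG. In either genotype 0 passed, beside 0.171% of all genes in WT and 0% in TG. Fcgr4 read 2.35, 3.39 and 0.59 in WT DSS, against 0.02, -0.27 and 0.04 in WT water, and Fcgr2b, the inhibitory receptor, stood at 1.92 ± 0.73 (limma adjusted p = 0.177 and 0.263). These receptors are carried by macrophages and neutrophils, and the macrophage list had medians of 1.11, 2.39 and -0.04 on the same 3 arrays. Its part in the receptor values was not tested. Collectins, ficolins and their proteases had a median difference of -0.09 over 11 genes in WT, and 0 passed. Of these Colec12, a scavenger receptor, stood at 1.38 ± 0.56 and Fcna, ficolin A, at 0.91 ± 0.32 (limma adjusted p = 0.284 and 0.223).

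Of 11 measured matrix partners of Ptx3, 1 passed in WT and was lower, as 0.125% of all genes were. This was Itih2, a heavy chain of inter-alpha-trypsin inhibitor, which Ptx3 binds in hyaluronan matrix. It read -1.65, -2.20 and -2.72 in WT DSS replicates 1, 2 and 3, against 0.20, 0.04 and 0.71 in WT water (-2.51 ± 0.32; limma adjusted p = 0.0267). In TG it read -1.10, -0.04 and -0.30, against 0.11, 0.36 and 0.18 on water, without overlap but not passing (-0.70 ± 0.32; limma adjusted p = 1). The list's median in WT was 0.61, opposite in sign to Itih2, and Cd44, the hyaluronan receptor, stood at 0.95 ± 0.32 (limma adjusted p = 0.205).

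Among acute-phase proteins, 1 of 17 passed in WT, where 0.171% of all genes did, namely Saa3, a serum amyloid A made outside the liver, and the list's median difference was 0.41. Saa3 read 5.55, 6.89 and 3.83 in WT DSS replicates 1, 2 and 3, against -0.29, -0.30 and -0.13 in WT water (limma adjusted p = 0.0343). In TG DSS replicates 1, 2 and 3 it read 2.77, -0.10 and 0.15. Across the 6 DSS arrays the 4 with high Saa3 were the 4 with low Mptx1, though WT DSS replicate 1 had more Saa3 and less loss of Mptx1 than replicate 3. Saa3 was named by its p for DSS in WT, the change assumed to have led to Mptx1. Their match on the WT DSS arrays was thus set by the choice, and only TG DSS replicate 1 lies outside it. Il1b and Lcn2 were high on that array as well, at 2.32 and 2.58. In TG 0 of 17 passed, with a median of 0.002. Fgb, a fibrinogen chain made by hepatocytes like Crp and Apcs, differed by 0.10 ± 0.13 in WT and -0.18 ± 0.13 in TG (limma adjusted p = 0.768 and 1). Lcn2, a siderophore-binding protein, stood at 4.54 ± 0.90 in WT (limma adjusted p = 0.0717).

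Of other secreted proteins of the mucosal surface, 0 of 13 passed in WT, where 0.171% of all genes did, with a median of 0.05. Retnlb, an antibacterial protein of goblet cells, read 3.24, 0.56 and 3.03 in WT DSS replicates 1, 2 and 3, against -0.14, -1.14 and -0.50 in WT water (2.87 ± 0.81; limma adjusted p = 0.155). In TG it read 3.12, 0.99 and 0.14 under DSS, against -0.25, -0.94 and -0.75 on water, with no overlap (2.06 ± 0.81; limma adjusted p = 1). Reg4, a secreted lectin, read -0.03, -1.78 and -2.89 in WT DSS, against 0.03, -0.08 and 0.06 in WT water (limma adjusted p = 0.214). In TG minus WT, 0 members of any of the 8 pathway lists passed, at water or under DSS. Of all genes 0% passed at water and 0.0401% under DSS, so these counts do not set the lists apart.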

How the data were processed

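The 12 arrays carried RNA labelled as from male mouse colon epithelial cells. Per the submitters' processing notes, the authors summarised signals with RMA in Affymetrix Expression Console; no source used here gives settings or versions. No source states the base of the deposited values either, and log2 was assumed from the method. That each probe set had been centred was found from the values: its median over the 12 arrays was 0 to within 5e-07. Of 28815 probe sets, 21780 had 1 gene symbol, 1605 several and 5430 none. Those with 1 symbol were averaged into 19935 genes, and the rest were left out. No filter on dim probe sets could be made.

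Groups were taken from the titles. Limma 3.58.1 in R 4.3.3 (lmFit, eBayes) fitted a mean per group to all 12 arrays, with 8 residual degrees of freedom, and p-values were adjusted by Benjamini-Hochberg across all genes. Genes with an adjusted p under 0.05 passed. Differences are on the log2 scale and values written as fold are on the linear scale. With 3 arrays a group precision is limited by their number. An exact permutation test of 3 against 3 cannot go below 0.1, so none is given. The fit was tested on simulated data.

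The members, 8 pathway lists and 12 marker lists (223 entries, 208 measured) were chosen with earlier results of these data known. Named genes were, per pathway list, the 2 with the smallest p for DSS in WT and the 1 for DSS in TG, all genes of the pentraxin-domain list, the 4 genes most correlated with each member, and the 3 nearest measured genes on each side. Symbols were matched to RefSeq (GRCm38.p6), and promoters of all 4 members were found there. Alignments used Biopython 1.88 in Python 3.11.15.

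Replicate numbers appear in the titles of all groups. Deviations from the group means of same-numbered arrays correlated between -0.484 and 0.377, over 0.1 in 1 of 18 pairs of arrays, so the numbers were not taken as pairs. Alternatives were a fit to the compared groups alone, a replicate block, single probe sets, centred arrays, a robust eBayes with a trend, weights per array or per group, a stricter threshold and the omission of arrays.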

Additional observations from a re-analysis of the deposited data

How the results depend on the processing

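The estimate of Mptx1 kept its sign in each setting tried for DSS in WT, for TG minus WT at water and under DSS and for the difference of the DSS changes. Leaving out 1 array gave -5.77 to -4.47 for DSS in WT, -0.36 to -0.09 at water, 3.68 to 5.08 for TG minus WT under DSS and 3.91 to 5.32 for the difference of the DSS changes. Its SE was less steady: with trend and robust it was 1.57 for each difference between groups, against 0.69 as reported, and 2.22 for the difference of changes, against 0.98. With WT DSS replicates 2 and 3 both left out the estimates were -3.80 for DSS in WT, 3.02 for TG minus WT under DSS and 3.25 for the difference of changes, with 1 WT DSS array assumed to vary like the other groups. For DSS in TG, leaving out 1 array gave -1.06 to 0.20 for Mptx1, the positive value being without TG DSS replicate 1.

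Small values changed sign. For DSS in TG, leaving out 1 array gave -0.039 to 0.064 for Ptx3, -0.16 to 0.022 for Crp and -0.030 to 0.096 for Apcs, and at water -0.024 to 0.095 for Ptx3 and -0.062 to 0.063 for Apcs. Weights per array gave -0.020 for Ptx3 and 0.036 for Crp for DSS in TG, and 0.12 for Crp in the difference of changes. At water they gave -0.0053 for Ptx3, -0.079 for Crp and -0.036 for Apcs. For DSS in WT they gave 0.036 for Ptx3, against 0.22 as reported, a smaller value of the same sign. Apcs at water was -0.00070 with centred arrays. None of the 4 genes passed in the TG comparison or at water in any setting. The cause of these shifts was not tested.

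Counts of passing genes depended on the setting. For DSS in WT (34) they were 0 with the replicate block, with the 2 groups alone, with weights per group and at an adjusted p under 0.01, 2 with trend and robust, 105 for single probe sets, 754 with weights per array, 158 without WT DSS replicates 2 and 3, and 0 to 919 without 1 array. For TG minus WT under DSS (8) they were 0 with the replicate block, with the 2 groups alone, with weights per group, with trend and robust and at 0.01, 4 with centred arrays, 273 with weights per array, 56 without WT DSS replicates 2 and 3, and 0 to 1166 without 1 array. For the difference of changes (0) they were 12 with weights per array, 22 without both replicates and 0 to 239 without 1 array. Weights per array gave 4 for DSS in TG and 1971 at water, where other settings gave 0. The counts of 919, 1166 and 239 came without WT DSS replicate 1. Where the count for DSS in WT was 0, C2, Itih2, Saa3 and the stem cell marker that passed as reported did not pass either. By Spearman's rank correlation the genes nearest to Mptx1 were Mapk6, Ephb3, Phlpp2 and Fmo4, none of the 4 given by Pearson's. Of the genes given by Pearson's for the other members, A730049H05Rik was at position 443 by Spearman's for Ptx3. Klk7 was at 217 for Crp and BC006965 at 247 for Apcs. The rest of those genes were at position 36 or nearer.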
